A study of Danio rerio with 10 samples.

Results

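The genes described here are 6 zebrafish genes known in vertebrates as targets of the transcriptional coactivator YAP, out of 33737 genes in the count tables. They are CCN2 (ENSDARG00000042934), CCN1 (ENSDARG00000023062), 2 genes that both carry the symbol ANKRD1 (ENSDARG00000075263 and ENSDARG00000076192), LATS2 (ENSDARG00000078864) and CRIM1 (ENSDARG00000029668). They were chosen by their identifiers with the Amh to control ratios of these libraries known, so those ratios are given as a description, without a test. The symbols are those of a reference name table, which often uses upper-case symbols of the human type. The RNA came from the testis of adult wild-type zebrafish, kept in culture for 3 days. All tissue received 11KT (11-ketotestosterone, the main androgen of male fish). The 5 control libraries had 11KT alone, and the 5 Amh libraries had 11KT together with Amh, anti-Müllerian hormone, a TGF-beta family ligand of Sertoli cells. Each group has libraries numbered 1 to 5 in the labels, which leave unsaid what a number stands for, so the spread between libraries may be partly technical.

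In the Hippo pathway the kinases STK3 and STK4, with the scaffold SAV1, activate the kinases LATS1 and LATS2. These phosphorylate YAP and its paralogue TAZ (gene WWTR1) and keep them out of the nucleus. When the kinases are less active, YAP and TAZ enter the nucleus, bind TEAD transcription factors and raise transcription of genes such as CCN1, CCN2 and ANKRD1, which are widely used as a readout of the pathway. CCN2 is also a classical response gene of TGF-beta, and CCN1 an immediate early gene of growth factor and serum stimulation. In mouse, Lats1 and Lats2 are needed to maintain the identity of Sertoli cells.

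Control libraries held 8455226 to 11934679 counts and Amh libraries 10974579 to 15448069, and within each number the Amh total was 1.2 to 1.3 times the control total. Levels are given in CPM (counts relative to the size of the library, after TMM scaling). A gene with no read could still have had up to 3 counts, which stood for 0.180 to 0.351 CPM. Floors and the intervals given below cover counting error only. Libraries of the same number deviated together from their group means, so ratios are given within each number. Germ cell markers, 12 genes, summed to 4881 to 6123 CPM in each library, and Sertoli cell markers, 13 genes, to 1375 to 2716 CPM, so the defining genes of testis tissue were present. In tissue, fewer cells of a type and less RNA per cell cannot be told apart.

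CCN2 (formerly CTGF) encodes a secreted matricellular protein that binds integrins and growth factors and is known for its part in fibrosis. It stood at 226, 153, 101, 150 and 215 CPM in control libraries 1 to 5 and at 261, 178, 157, 207 and 324 CPM in the Amh libraries of the same numbers. The Amh library was the higher of the pair in all 5 numbers, while the groups as a whole overlapped, with 2 Amh libraries above the highest control library. The log2 ratio of Amh to control was 0.21, 0.22, 0.63, 0.47 and 0.59 in numbers 1 to 5, a mean of 0.42 ± 0.20 (SD, n = 5 numbers), or 1.34-fold. With 938 to 5380 reads behind each level, the 95% exact binomial interval of each ratio lay above 0 in 5 of 5 numbers. Numbers 1 and 2 had the small ratios and numbers 3, 4 and 5 the large ones, with no overlap of their counting intervals. Among all 19420 genes tested, 4.65% had a higher level in Amh in 5 of 5 numbers.

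CCN1 (formerly CYR61) encodes a matricellular protein of the same family. Its level was 44.8, 35.5, 19.1, 31.7 and 34.6 CPM in control libraries 1 to 5 and 45.5, 34.3, 27.4, 32.3 and 45.6 CPM in Amh libraries. In numbers 1, 2 and 4 the libraries of a pair were nearly level, and in numbers 3 and 5 the Amh library was higher. Those last pairs had log2 ratios of 0.52 (95% counting interval 0.25 to 0.79) and 0.40 (0.23 to 0.57). In the other 3 numbers the ratio was -0.05 to 0.02 and its counting interval covered 0. The mean was 0.18 ± 0.26 (SD, n = 5 numbers), and the groups overlapped. Numbers 3 and 5 were also the numbers with the highest ratios of CCN2.

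The ANKRD1 genes encode an ankyrin repeat protein that in mammals acts in the nucleus and in the sarcomere of muscle cells. Both were rare, with 13 to 66 reads per library. ENSDARG00000075263 stood at 2.51, 4.57, 1.72, 1.77 and 1.99 CPM in control libraries 1 to 5 and at 1.57, 3.95, 3.15, 4.37 and 3.97 CPM in Amh libraries. It was lower with Amh in numbers 1 and 2 and higher in numbers 3, 4 and 5, with log2 ratios from -0.68 to 1.30 (mean 0.46 ± 0.85, SD, n = 5 numbers). The counting interval lay above 0 in numbers 4 (0.51 to 2.16) and 5 (0.31 to 1.72) and covered 0 in the other 3.

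ENSDARG00000076192 stood at 2.96, 1.52, 3.56, 3.15 and 2.38 CPM in control libraries and at 3.20, 3.40, 5.59, 3.12 and 2.29 CPM in Amh libraries. Here numbers 2 and 3 carried the difference, with log2 ratios of 1.16 (0.22 to 2.20) and 0.65 (0.03 to 1.31). In numbers 1, 4 and 5 the ratio lay between -0.06 and 0.11, and the mean was 0.37 ± 0.53 (SD, n = 5 numbers). The paralogues thus had their highest measured ratios in different numbers, apart from number 3. Their counting intervals overlapped in every number, so no difference between the paralogues is read from this. Summed over both genes, a sum made after the values were seen, the log2 ratio was -0.20, 0.27, 0.73, 0.61 and 0.52 in numbers 1 to 5 (mean 0.38 ± 0.37, SD). How the reads split between the paralogues varied widely, since ENSDARG00000075263 took 32.7% to 75.0% of the summed CPM. The sources used here do not say how reads shared by paralogues were counted.

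LATS2 is itself a Hippo kinase and, as a YAP target, a negative feedback of the pathway. It stood at 20.7, 15.6, 14.0, 14.7 and 25.8 CPM in control libraries 1 to 5 and at 24.8, 16.5, 15.6, 17.3 and 22.2 CPM in Amh libraries. Pairs were close to level, with log2 ratios of 0.26, 0.08, 0.15, 0.24 and -0.21 (mean 0.10 ± 0.19, SD, n = 5 numbers). Only the interval of number 1 lay above 0 (0.02 to 0.50). No Amh library stood above the highest control library.

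CRIM1 encodes a transmembrane protein with cysteine-rich repeats that binds BMPs. It stood at 10.0, 6.44, 5.28, 8.08 and 8.27 CPM in control libraries and at 13.5, 4.87, 6.55, 11.2 and 10.1 CPM in Amh libraries. The log2 ratio was 0.42, 0.31, 0.47 and 0.29 in numbers 1, 3, 4 and 5, and -0.40 in number 2 (mean 0.22 ± 0.35, SD). Number 2 was the exception in direction, and its counting interval of -0.97 to 0.17 covered 0, as did those of numbers 3 and 5. The intervals of numbers 1 (0.08 to 0.77) and 4 (0.07 to 0.88) lay above 0.

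**Figure D1:**
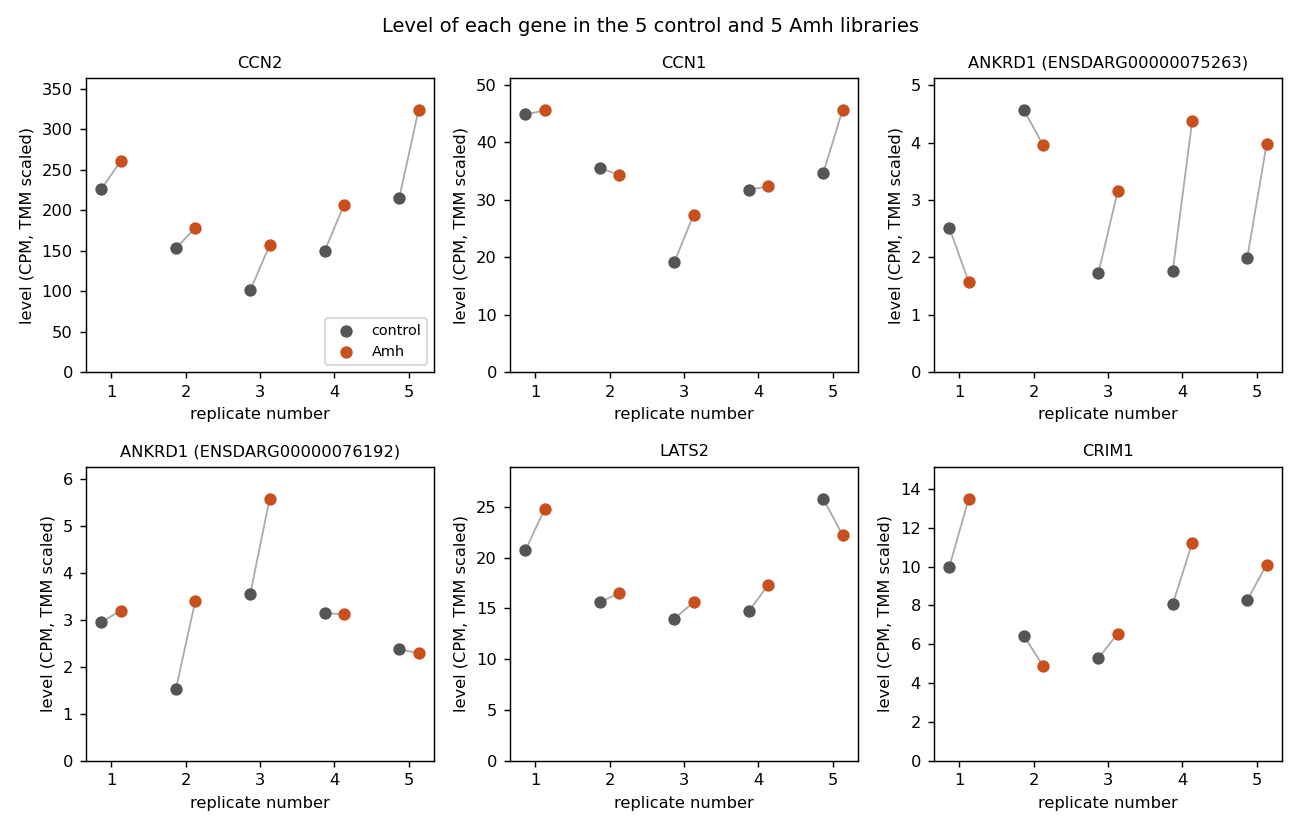
Level of the 6 genes (vertical axis, CPM from 0) in each library by replicate number (horizontal axis), control in grey and Amh in orange, with a line joining the libraries of a number. CCN2 is higher in the Amh library in 5 of 5 numbers, and the groups overlap for every gene.

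Across the 6 genes, the number of pairs with the higher level in Amh was 5 for CCN2, 4 each for CCN1, LATS2 and CRIM1, and 3 for each ANKRD1 gene. At least 4 of 5 pairs were higher for 4 of the 6 genes, and for 21.3% of all genes tested. The 6 genes were chosen with these ratios known, so nothing is read from that difference. The count also takes in nearly level pairs, since CCN1 had log2 ratios of 0.02 in numbers 1 and 4, with intervals that covered 0. By number, 5, 3, 6, 5 and 4 of the 6 genes were higher with Amh in numbers 1 to 5, with median log2 ratios of 0.16, 0.01, 0.57, 0.35 and 0.34. The median over all tested genes lay between -0.013 and 0.001 in every number. Number 3 had the highest median ratio of the 6 genes, and number 2 a median near 0.

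Fitted over all libraries without pairing (edgeR, quasi-likelihood), the log2 fold change was 0.42 ± 0.244 for CCN2, 0.16 ± 0.216 for CCN1, 0.44 ± 0.361 and 0.37 ± 0.311 for the ANKRD1 genes in the order above, 0.09 ± 0.205 for LATS2 and 0.28 ± 0.285 for CRIM1 (SE). With the number as a block the values were 0.42 ± 0.0803, 0.18 ± 0.0975, 0.45 ± 0.291, 0.34 ± 0.241, 0.10 ± 0.108 and 0.25 ± 0.158 in that order (SE). The block moved the fold changes by at most a few hundredths, and the standard error of CCN2 shrank by the largest factor.

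At an adjusted p threshold of 0.05 over all genes, unpaired edgeR called 0 of the 6, with 0% of all 19420 genes called (131 genes at an unadjusted p under 0.05). Paired edgeR also called 0 of the 6, with 0.0206% of all genes called. Paired DESeq2 called 1 of the 6, CCN2, with 0.260% of the genes that received an adjusted p called; it gave none to CRIM1 and the ANKRD1 genes. Without number 2, paired edgeR called CCN2 as well, and 1.16% of all genes. The paired edgeR fits that left out number 1, 3, 4 or 5 instead called 0 genes as higher with Amh. Since these genes were chosen with this contrast in view, nothing is read from those counts.

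**Figure D2:**
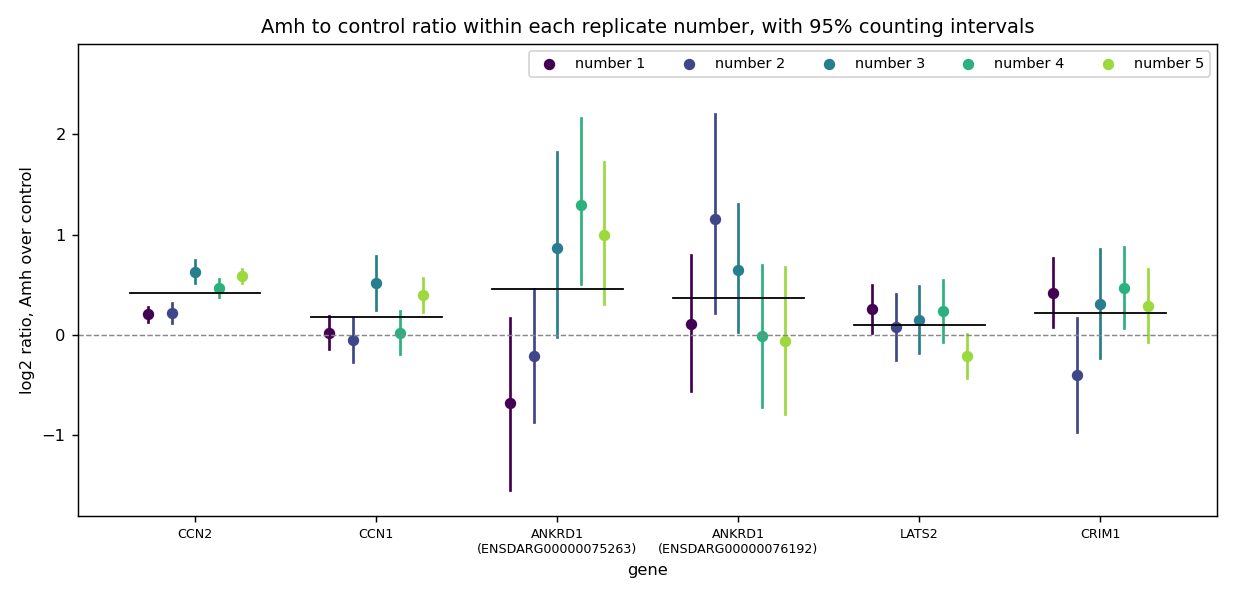
Log2 ratio of Amh to control (vertical axis) within each replicate number (colours) for the 6 genes; vertical bars are 95% counting intervals and black lines the mean of the 5 numbers. Bars are short for CCN2, where they lie above 0 in 5 of 5 numbers, and long for the ANKRD1 genes, which have 13 to 66 reads per library.

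A comparison that did not enter the choice of the genes is that between replicate numbers, tested with both groups in the model. CCN2 differed between numbers (edgeR quasi-likelihood F test, Benjamini-Hochberg adjusted p = 2.83e-05), with a geometric mean of control and Amh of 126 CPM in number 3, 165 in number 2, 176 in number 4, 243 in number 1 and 264 in number 5. In this order the libraries of neighbouring numbers overlapped, apart from numbers 4 and 1. The fold from the lowest to the highest number was 2.10. As a range over 5 numbers, it is not a like measure to the mean Amh to control ratio of 1.34-fold.

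CCN1 (adjusted p = 0.00110), LATS2 (0.00502) and CRIM1 (0.00791) also differed between numbers by this edgeR test, by 1.98-fold, 1.62-fold and 2.08-fold. CCN1 ran from 22.8 CPM in number 3 to 45.1 in number 1, LATS2 from 14.8 in number 3 to 23.9 in number 5, and CRIM1 from 5.60 in number 2 to 11.6 in number 1. Without number 3 the adjusted p of CCN1 was 0.0581. The ANKRD1 genes did not pass, with adjusted p = 0.290 and 0.175 at folds of 2.14 and 1.96. In all, 4 of the 6 genes passed, beside 52.6% of all genes tested, so a difference between numbers was common in these libraries.

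CCN2, CCN1 and LATS2 shared their lowest number, 3, and each had numbers 1 and 5 as its highest. CRIM1 was low in numbers 2 and 3 and also highest in number 1. The ANKRD1 genes did not follow this order, since ENSDARG00000075263 was lowest in number 1 and highest in number 2, and ENSDARG00000076192 was highest in number 3. Number 3 was also the lowest for the summed markers of Leydig cells and of epithelium and mesothelium. For those of Sertoli cells, peritubular myoid cells, endothelium and fibroblasts, number 5 was the lowest and number 3 the next. CCN2 and LATS2 were highest in that number 5. In contrast, number 3 was the highest for germ cell and red cell markers and in the middle for leukocyte markers, while for striated muscle markers it was above number 4 alone. The part of cell composition in the order of the numbers was not tested.

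**Figure D3:**
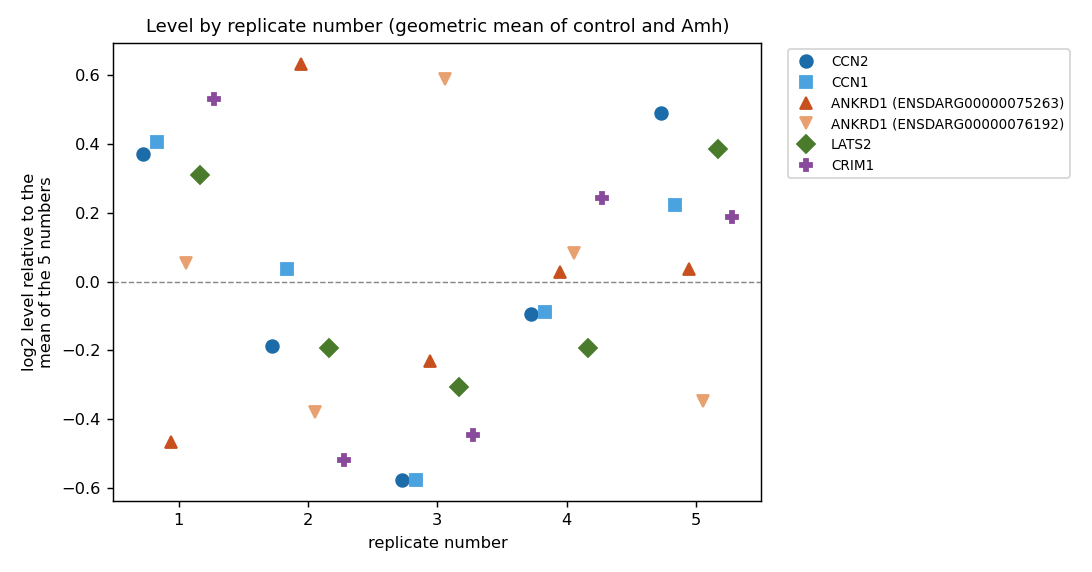
Level of each gene in each replicate number (geometric mean of its control and Amh library, log2, relative to the mean of the 5 numbers). CCN2 and CCN1 lie together at the bottom in number 3, while the ANKRD1 genes spread in other directions.

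YAP1, the coactivator itself, stood at 56.8, 56.1, 32.8, 57.4 and 46.0 CPM in control libraries 1 to 5 and at 64.9, 57.2, 50.3, 68.0 and 59.3 CPM in Amh libraries. It was higher with Amh in 5 of 5 numbers and lowest in number 3 in both groups. Its log2 fold change was 0.27 ± 0.162 (SE) unpaired and 0.29 ± 0.0869 (SE) paired, and it did not pass over all genes (edgeR adjusted p = 0.9999 unpaired and 0.376 paired). Without number 2, paired edgeR called it (log2 fold change 0.35 ± 0.0799, SE, adjusted p = 0.0315, 1.16% of all genes called). The paired fits that left out number 1, 3, 4 or 5 instead called 0 genes as higher with Amh. WWTR1, which encodes TAZ, stood at -0.02 ± 0.112 (log2 fold change, SE, paired), with 2 numbers higher and 3 lower. Its pairs were not level: control and Amh stood at 35.8 and 51.4 CPM in number 2, and at 36.1 and 27.0 CPM in number 1.

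The TEAD genes, which give YAP its DNA binding, did not pass either. The paired log2 fold change was 0.11 ± 0.107 for tead1a, -0.15 ± 0.101 for TEAD1, lower in 5 of 5 numbers as were 5.09% of all tested genes, and -0.23 ± 0.334 and -0.26 ± 0.252 for the TEAD3 genes ENSDARG00000063649 and ENSDARG00000074321 (SE). Their paired edgeR adjusted p ran from 0.712 to 0.890.

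The list of the Hippo pathway core held 29 genes, among them YAP1, WWTR1 and the TEAD genes, and 25 were tested. Paired DESeq2 gave no adjusted p to WWC1, dchs1b, both TEAD3 genes, VGLL3 and VGLL4, so it could not call them. Of the 25 tested, 0 rose and 0 fell over all genes, unpaired or paired, in edgeR and, among those with an adjusted p, in DESeq2. At an unadjusted p under 0.05 in the paired edgeR fit 2 stood higher and 1 lower, where 8.72% of all genes were below that p, 3.84% higher and 4.88% lower. The list's median log2 fold change was -0.01 and that of all tested genes -0.01, both paired. AJUBA, a LIM protein that inhibits LATS kinases, stood at 17.0, 17.3, 14.5, 14.2 and 15.7 CPM in control libraries 1 to 5 and at 24.7, 23.3, 17.4, 16.5 and 25.1 CPM in Amh libraries. All 5 pairs were higher with Amh, and the Amh libraries of numbers 1, 2, 3 and 5 stood above every control library, that of number 3 by a narrow margin. Its paired log2 fold change was 0.43 ± 0.108 (SE, edgeR adjusted p = 0.297). WWC1 (KIBRA), an activator of the kinases, stood at -0.37 ± 0.173 (SE, paired), SAV1 at 0.20 ± 0.0968 and LATS1, the paralogue of LATS2, at -0.12 ± 0.0708, lower in 5 of 5 numbers. AJUBA was named for the smallest paired p of this list, a choice that favours pairs of like direction. WWC1, SAV1 and LATS1 were named after their values were seen. Over all tested genes, 4.65% were higher and 5.09% lower with Amh in 5 of 5 numbers.

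Other genes known as YAP and TAZ targets in human cancer cells formed a list of 17 beside the 6, of which 15 were tested. Paired DESeq2 gave no adjusted p to ccdc80, f3b, FJX1, foxf2b, DOCK5 and ASAP1 (ENSDARG00000029463), so it could not call them. Over all genes 0 of the 15 rose and 0 fell, unpaired or paired, in edgeR and, among those with an adjusted p, in DESeq2. At an unadjusted p under 0.05 in the paired edgeR fit 2 stood higher and 0 lower, where 8.72% of all genes were below that p. The median paired log2 fold change was 0.16, with 11 of 15 above 0, beside -0.01 and 48.8% above 0 over all tested genes. Such a share was not particular to this list. It was 10 of 12 for CCN receptors and 20 of 26 for immediate early genes, but 12 of 25 for the Hippo core and 11 of 24 for the TGF-beta response. The lists were chosen with earlier results of these data known, so no shift of YAP targets is read from these counts. The one with the smallest p, amotl2b, encodes an angiomotin that binds YAP. It stood at 71.9, 38.3, 35.1, 44.1 and 61.7 CPM in control libraries 1 to 5 and at 88.5, 44.8, 46.0, 48.8 and 98.3 CPM in Amh libraries. It was higher with Amh in 5 of 5 numbers, and numbers 1 and 5 were its highest in both groups, as they were for CCN2.

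The paired log2 fold change of amotl2b was 0.35 ± 0.0858 (SE, edgeR adjusted p = 0.297 over all genes, and 0.0185 without number 2). It was not called when number 1, 3, 4 or 5 was left out instead. Its paralogue AMOTL2 stood at 0.18 ± 0.0897 (SE), higher in 4 of 5 numbers. ccdc80, a secreted matrix protein, was rarer, at 10.4, 8.90, 3.45, 3.65 and 5.09 CPM in control and 14.4, 12.2, 4.98, 5.55 and 9.20 CPM in Amh libraries. It too was higher with Amh in 5 of 5 numbers (0.58 ± 0.151, SE, paired, adjusted p = 0.309), as were 4.65% of all tested genes. amotl2b, AMOTL2 and ccdc80 were named for the smallest paired p among the other YAP targets, a choice that favours such pairs. NT5E, an ecto-nucleotidase named after its values were seen, was lower in 5 of 5 numbers (-0.21 ± 0.106, SE, paired, adjusted p = 0.617).

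**Figure D4:**
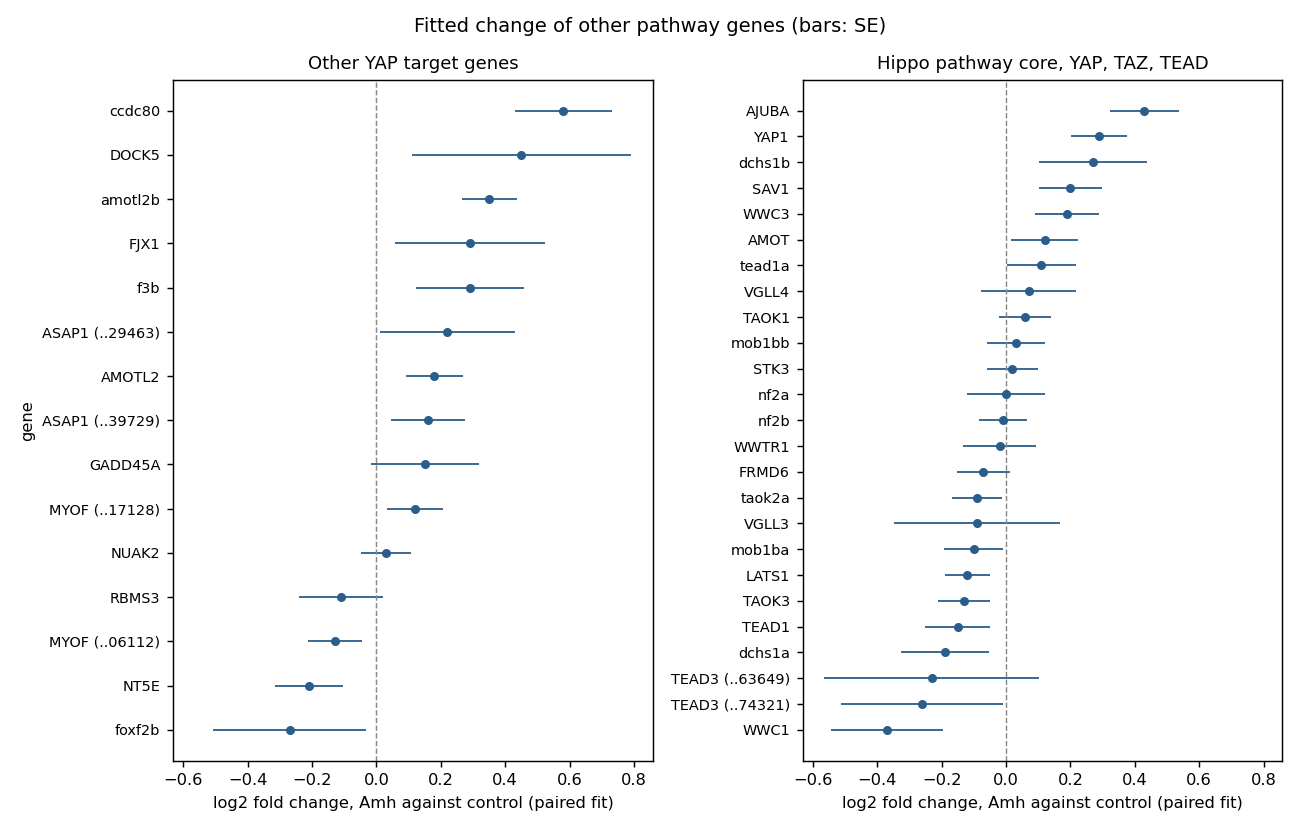
Log2 fold change of Amh against control in the paired edgeR fit (horizontal axis, bars are SE) for the 15 other YAP target genes tested and the 25 tested genes of the Hippo pathway core. The other targets lie above 0 in 11 of 15 cases, the core genes on either side of 0, and none passed over all genes.

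The other CCN family genes that were found by symbol were rare. ccn6 stood at 1.44, 1.29, 1.40, 1.48 and 1.35 CPM in control libraries and at 0.476, 1.01, 0.437, 1.02 and 0.782 CPM in Amh libraries, from 5 to 17 reads each. Its groups did not overlap, with every Amh library below every control library, as for 0.139% of all tested genes (either direction). Reads were few, with 11 in each library of number 2, and 15 in control and 13 in Amh of number 4. No counting interval was computed for the pairs of ccn6. The paired log2 fold change was -0.93 ± 0.351 (SE, edgeR adjusted p = 0.475), in the opposite direction to that of CCN2. CCN4 (ENSDARG00000076685) stood at 0.41 ± 0.302 and ccn1l1, a second gene of the CCN1 kind, at -0.26 ± 0.327 (log2, SE, paired). ccn4a, with 0.613 ± 0.103 CPM in Amh libraries (SD, n = 5), and CCN5, with a read in 6 of 10 libraries, were below the filter on low counts. ANKRD2, the muscle relative of ANKRD1, had a read in 7 of 10 libraries and was not tested.

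Lists of processes close to these genes were counted in the same way. Of 12 tested genes of CCN receptors (integrins, LRP1 and syndecan), 0 passed over all genes and the paired median was 0.15, with 10 above 0. The integrin subunit ITGB5 stood at 0.20 ± 0.0914 and itga2b, a platelet and thrombocyte integrin, at 0.68 ± 0.364 (log2, SE, paired). Each was higher in 5 of 5 numbers, as were 4.65% of all tested genes, and itga2b was rare, with 4 to 18 reads per library. The list of targets of SRF and MRTF, which read out the actin cytoskeleton, also held SRF and the MRTF genes themselves. This whole list had a paired median of 0.11 with 16 of 24 above 0 and 0 called. CNN2, an actin-binding calponin, stood at 0.32 ± 0.0808 and actb2, a cytoplasmic actin, at 0.27 ± 0.0766 (edgeR adjusted p = 0.297 and 0.371). Each was higher in 5 of 5 numbers, as were 4.65% of all tested genes. Both were named for the smallest paired p of the list, a choice that favours such pairs.

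Genes of the TGF-beta response had a paired median of -0.04 with 11 of 24 above 0, and edgeR called 0. TIMP2 (ENSDARG00000075261), an inhibitor of metalloproteinases, stood at 418, 662, 440, 495 and 1033 CPM in control libraries 1 to 5 and at 635, 729, 696, 625 and 1283 CPM in Amh libraries. Every pair was higher with Amh, and number 5 was the highest in both groups. TIMP2 was named for the smallest paired p of this list, a choice that favours such pairs. Its paired log2 fold change was 0.41 ± 0.0839 (SE), with adjusted p = 0.195 in edgeR and 0.00340 in DESeq2 (0.260% of genes called). Without number 2, the genes that paired edgeR called included TIMP2 (0.48 ± 0.0794, SE, adjusted p = 0.00292) and CNN2 (0.40 ± 0.0697, 0.00485), with 1.16% of all genes called. The paired edgeR fits that left out number 1, 3, 4 or 5 instead called neither, with 0 genes called as higher with Amh.

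Of 26 immediate early genes, a list that reflects serum response, handling and stress, 20 stood above 0 in the paired fit with a median of 0.13, and 0 passed over all genes. JUN stood at 0.20 ± 0.086 and EGR3 at 0.36 ± 0.180 (log2, SE, paired), each higher in 4 of 5 numbers. BMP-binding relatives of CRIM1 held 3 tested genes, none called, with kcp at -0.14 ± 0.0869 and chrd at 0.18 ± 0.151 (log2, SE, paired). With Amh, kcp was lower in 5 of 5 numbers, as were 5.09% of all tested genes, and chrd was higher in 3 and lower in 2.

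Summed markers of several cell types differed within the pairs as well, though the control and Amh ranges of each sum overlapped. Of the markers in this paragraph, unpaired edgeR called 0 over all genes. At an unadjusted unpaired p under 0.05 it had 1 of them, a Sertoli marker that was lower. Counts of marker genes above 0, here and in the next paragraph, are of tested genes in the paired edgeR fit. The summed level of 13 Sertoli cell markers was 1375 to 2130 CPM in control and 1712 to 2716 CPM in Amh libraries, higher with Amh in 5 of 5 numbers (mean log2 ratio 0.26 ± 0.14, SD), with 10 of 13 genes above 0 and none at 0. The Sertoli genes did not all move one way, since 2 were higher and 2 lower with Amh in 5 of 5 numbers, and at an unadjusted paired p under 0.05 edgeR had 6 higher and 2 lower. That of 10 markers of epithelium and mesothelium was 1079 to 1656 and 1317 to 2029 CPM, also higher in 5 of 5 numbers (0.25 ± 0.15, SD), with 7 of 9 tested genes above 0. Much of this sum came from the keratins krt8 and krt18a.1, with means of 581 and 311 CPM in control libraries. WT1 was in this list and in the Sertoli list. Summed leukocyte markers (10 genes, 0 above 0) were 244 to 430 and 173 to 301 CPM, and red cell markers (7 genes, 5 tested, 0 above 0) 67.5 to 156 and 47.5 to 118 CPM. Both sums were lower in 5 of 5 numbers (-0.42 ± 0.21 and -0.38 ± 0.22, log2, SD). Much of the leukocyte sum came from cd74a and cd74b, with means of 95.9 and 136 CPM in control libraries. Leydig markers (11 genes, 3 of 10 above 0) summed to 67.3 to 433 CPM in control and 60.0 to 254 CPM in Amh libraries, lower in 4 of 5 numbers with a wide spread (-0.32 ± 0.44, log2, SD). Of the 10 tested, 5 were lower at an unadjusted paired p under 0.05 in edgeR, and paired DESeq2 called 2 of them lower over all genes. At that p, 4 epithelium and mesothelium markers were higher, and 6 leukocyte and 3 red cell markers lower. Over all genes, 3.84% were higher and 4.88% lower at that p. Paired DESeq2 also called 1 Sertoli and 1 epithelium marker higher and 1 leukocyte and 1 red cell marker lower (0.260% of genes called). Paired edgeR called 1 leukocyte marker lower (0.0206% of all genes called).

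The summed markers of the other cell types had mean ratios nearer to 0. Peritubular myoid markers (17 genes, 8 of 14 tested above 0) summed to 409 to 683 CPM in control and 519 to 673 CPM in Amh libraries, higher in 3 of 5 numbers (0.08 ± 0.24, log2, SD). Endothelial markers (14 genes, 6 of 10 above 0, aplnra at 3 reads or fewer in every library) summed to 104 to 131 and 105 to 133 CPM (0.00 ± 0.08). Fibroblast markers (11 genes, 4 of 10 above 0) summed to 523 to 787 and 537 to 845 CPM (-0.05 ± 0.28). Striated muscle markers (18 genes, 7 of 13 above 0, cmlc1 at 3 reads or fewer) summed to 25.9 to 50.9 and 29.6 to 64.0 CPM (0.07 ± 0.19). Germ cell markers (3 of 12 above 0) were lower in 5 of 5 numbers (-0.09 ± 0.05, log2, SD). At an unadjusted paired p under 0.05 in edgeR, 2 peritubular myoid markers were higher. At that p, 1 marker each of striated muscle, endothelium, fibroblasts and germ cells was lower. The endothelial one was TIE1, lower in 5 of 5 numbers (-1.17 ± 0.311, log2, SE, paired), so a level sum need not hold for each gene. The part of cell composition, or of the greater depth of the Amh libraries, in the ratios of CCN2 and the other 5 genes was not tested.

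The genes most like the CCN2, CCN1 and ANKRD1 genes over the 10 libraries were ranked by Pearson's r of log2 CPM with the mean z score of those 4, among 17113 genes whose average log2 CPM was 1 or more. The 10 libraries come from 5 numbers and share them in pairs, so r is a description. The 4 genes did not form a tight group, with r of 0.85 for CCN2, 0.77 for CCN1, 0.51 for ENSDARG00000075263 and 0.02 for ENSDARG00000076192 with their own score. The nearest genes were ABI1, an actin regulator of the WAVE complex (r = 0.943), IGFBP5, which binds insulin-like growth factors (0.907), ENSDARG00000077538 (0.903), DUSP6, a phosphatase of ERK (0.900), nudt19 (0.888), ENSDARG00000035831 (0.883), LZTS2 (0.878) and ube2na, a ubiquitin-conjugating enzyme (0.873). Over all ranked genes the median r was -0.01. The score itself stood at -1.15 to 0.34 in control and at 0.21 to 0.71 in Amh libraries, so genes chosen for their likeness to it tend to be higher with Amh by that choice, and no change between the groups is read from them.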

How the data were processed

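RNA of 10 libraries (5 control, 5 Amh) was isolated with a miRNeasy kit and made into libraries with an Illumina TruSeq kit, per the labels. The deposited values are raw read counts per Ensembl gene, 1 file per library. Per the submitters' processing notes, the tools were TopHat2 2.0.5, HTSeq, SAMtools 0.1.18, FastQC 0.10.1 and DESeq, on build Zv9. How reads were assigned to genes (annotation release, mode, strand) was not stated there. Symbols came from a name table (21939 of 33737 genes).

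Genes passing filterByExpr (19420, all 6 members among them) were scaled by TMM and tested with edgeR 4.0.16 in R 4.3.3 (quasi-likelihood, group alone, Benjamini-Hochberg adjustment over all genes, threshold 0.05). DESeq2 1.42.0, other scalings, no filter, and left-out libraries were alternatives. Log2 CPM used a prior count of 2 for ratios and group overlap over all tested genes and for correlations. The ratios of the 6 genes and of the marker sums came from CPM without a prior count. Counting intervals are exact (Clopper-Pearson, 95%). A second test took the replicate numbers as the factor.

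Deviations from the group means correlated at 0.490 to 0.784 between libraries of the same number and, for unlike numbers in opposite groups, at -0.338 to 0.130 (across genes, which are not independent replicates), so the numbers were taken to pair the libraries. The block lowered the biological coefficient of variation from 31.7% to 11.9%. No libraries were copies of each other.

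The members and lists were chosen with earlier results of these data known. The lists had 437 entries: 106 were found by exact symbol, 122 by symbol in another case, 101 without their paralogue letter, and 108 were not found. Genes named are the 6; YAP, TAZ and TEAD genes; other CCN and ANKRD relatives; the smallest paired p of each list (3 among YAP targets, otherwise 2); and the 8 nearest in pattern. For the marker lists, sums and counts are given in place of 2 genes each. Exceptions are stated, and a gene that the rule names is not reported here.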

Additional observations from a re-analysis of the deposited data

Results flagged for a closer look

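Of 110 sets of 5 values examined (the 6 genes and the other genes named from lists), 4 had a value far from the other 4, and chance flags about 1 set in 20. ANKRD1 (ENSDARG00000075263) stood at 4.57 CPM in control library 2, against 1.72 to 2.51 CPM in the other control libraries. CRIM1 had a log2 ratio of Amh to control of -0.40 in number 2, against 0.29 to 0.47 in the other numbers. CCN4 (ENSDARG00000076685) stood at 2.42 CPM in control library 1, against 1.08 to 1.38 CPM in the others. TIMP2 (ENSDARG00000075261) stood at 1283 CPM in Amh library 5, against 625 to 729 CPM in the other Amh libraries.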

How the results depend on the processing

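Pairing by number (the replicate block) moved the count of genes called between Amh and control from 0 to 4 in edgeR and to 26 in DESeq2; with 1 library left out the unpaired count stayed at 0, and with 1 pair left out the paired count ran from 0 (without number 4 or 5) over 1 (without number 1 or 3) to 229 (without number 2). The cause of these shifts was not tested. The counts of other YAP target genes and of Hippo core genes ran from 0 to 1 each, the single calls being amotl2b and YAP1 in the paired fit without number 2. RLE or upper-quartile scaling, no low-count filter and unpaired DESeq2 kept all 3 counts at 0. The fold changes of the 6 genes stayed above 0 in each of 21 alternatives, with the exception of LATS2 (below 0 in 1 of 21, -0.02 to 0.25). Each moved by less than 1 SD of its pair ratios, a bound that leaving out 1 library or pair could hardly exceed. The genes were chosen with this contrast known, so no support is read from either. With 1 library left out, CCN2 moved from 0.42 to between 0.25 (without Amh 5) and 0.54 (without control 1), and CCN1 from 0.16 to between 0.02 (without control 3), 0.07 (without Amh 1 or 5) and 0.29 (without control 1). CRIM1 moved from 0.28 to between 0.10 (without Amh 1) and 0.44 (without Amh 2), with 0.17 without control 3. ANKRD1 ENSDARG00000075263 moved from 0.44 up to 0.76 (without control 2), with 0.24 in the paired fit without number 4, and ENSDARG00000076192 from 0.37 down to 0.14 (without Amh 3), with 0.22 without control 2. LATS2 was lowest without Amh 1 and highest without control 5. Between numbers, 10221 genes passed, and with a pair left out 6775 to 11828, the lowest without number 3; CCN1 then had an adjusted p of 0.0581 (the range over left-out pairs began at 6.46e-06). With 13 to 66 reads, depth limits the ANKRD1 genes.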

Other observations

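CCN2 has the most reads of the 6 genes, so genes like it alone were also ranked, a choice made after the values were seen. Over the 10 libraries the nearest by Pearson's r of log2 CPM were the homeobox gene nkx3.3 (r = 0.955), the simple-epithelium keratin krt18a.1 (0.953), ENSDARG00000087892 (0.952), SNX18, a sorting nexin (0.946), LZTS2 (0.945) and ENSDARG00000053954 (0.942). Of 17113 genes ranked, 50 had r above 0.9, and LZTS2 was also among the nearest genes of the 4-gene score. The keratin krt18a.1 averaged 311 ± 73.2 CPM without Amh and 402 ± 124 CPM with it (SD over 5 libraries). CCN2 itself was chosen for its ratio between the groups, so no change between them is read from genes chosen for their likeness to it.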
